A study of Mus musculus with 12 samples.

Results

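Egr1, Egr2, Egr3, Nab2, Nr4a1, Nr4a3 and Cd5 are transcripts that thymocytes make in response to signals from their antigen receptor, and they were followed here in pre-T cells with and without the RNA-binding proteins ZFP36L1 and ZFP36L2. They were taken by symbol from the deposited gene table, which held all 7 among its 43629 genes. Of the 13944 genes with enough counts to test, 6 were among the 7; Egr3 was not. They were chosen by name and not by a threshold, with earlier results on several of them known.

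Total RNA of sorted thymic cells was sequenced in 12 libraries, with 3 groups of 4 biological replicates, all on the C57BL/6 background. DCKO cells were described as DN3-like and came from mice of genotype Zfp36l1fl/fl, Zfp36l2fl/fl, CD2cre, in which Cre recombinase under the CD2 promoter acts in lymphoid cells on both floxed genes. Control DN3b and control DN3a cells came from Zfp36l1fl/fl, Zfp36l2fl/fl mice without the transgene, so the floxed alleles are common to all groups and a control that carries Cre alone was not analysed here. Age, sex and any pooling of animals are not given here.

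The DN3 stage of thymocyte development is where the rearranged T cell receptor beta chain is first tested. DN3a cells have not yet passed that test; in cells that make a working beta chain, the pre-TCR forms with pTalpha and the CD3 subunits, signals through LCK, ZAP70, the Ras-ERK cascade and calcium, and the cells become DN3b. EGR1, EGR2 and EGR3 are zinc-finger transcription factors induced by ERK signals, and NAB2 is a corepressor that binds EGR proteins and is itself induced by them. NR4A1 (NUR77) and NR4A3 (NOR1) are orphan nuclear receptors whose transcripts rise within the first hours of receptor signalling. CD5 is a surface receptor that restrains antigen receptor signalling and whose amount is widely read as a record of signal strength. ZFP36L1 and ZFP36L2 bind AU-rich elements in 3′ UTRs and promote decay of the bound mRNA.

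The promoter stretches of Egr2 and Nr4a1 are shown because they carry sequence features of signal-induced genes, and 5 of the 7 genes had at least 1 window in the RefSeq promoter table of build GRCm38.p6. Each stretch is the 250 bases before a start site, 5′ to 3′. In Egr2 (chr10:67537619-67537868, plus strand) the capitals mark a CArG box, the binding site of serum response factor. In Nr4a1 (chr15:101266596-101266845, plus strand) they mark 4 copies of TGCGTCA, a variant of the cyclic AMP and AP-1 type site, and 1 reverse-strand copy of the EGR-type site GCGGGGGCG.
Egr2: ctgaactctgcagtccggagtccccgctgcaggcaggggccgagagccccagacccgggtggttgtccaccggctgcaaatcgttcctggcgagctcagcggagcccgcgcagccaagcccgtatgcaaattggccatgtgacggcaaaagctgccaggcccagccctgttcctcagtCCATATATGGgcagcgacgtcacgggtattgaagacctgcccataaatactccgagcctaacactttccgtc
Nr4a1: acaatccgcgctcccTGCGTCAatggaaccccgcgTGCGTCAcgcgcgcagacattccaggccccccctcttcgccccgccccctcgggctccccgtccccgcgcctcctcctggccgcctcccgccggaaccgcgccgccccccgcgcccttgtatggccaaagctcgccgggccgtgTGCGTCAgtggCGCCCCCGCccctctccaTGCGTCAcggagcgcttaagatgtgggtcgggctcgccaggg
The motifs were searched on both strands of the full 300-base windows, which run on to 50 bases after the start. A CArG box was in 4 of the 5 Egr2 windows and in 1.63% of all 32851 windows; in the stretch shown it lay 72 to 63 bases before the start, and windows 3, 4 and 5 of Egr2 overlap and share that box. TGCGTCA was in 2.12% of windows, and the Nr4a1 window was the 1 window of 32851 with at least 4 copies. GCGGGGGCG was in 2.91% of windows and among the 7 genes in Nr4a1. TGACGTCA (1.79% of windows), GCGTGGGCG (0.612%) and AAAGGTCA (1.51%) had no match in the windows of the 5 genes, and none of the 6 motifs matched the windows of Nab2, Nr4a3 or Cd5. No searched motif overlapped another in the stretches shown. The TGCGTCA motif and the cut of 4 copies were set after the promoters had been read, so the Nr4a1 window was bound to be counted. A match is a description of letters only.

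The heptamer TATTTAT, the form of AU-rich element bound by the ZFP36 family, was looked for in each gene's GENCODE M21 transcript with the longest 3′ UTR (GRCm38). It occurred in 3 places in 2 of the 7 genes, which are shown with the heptamer in capitals: Nab2 at chr10:127660947-127660973 on the minus strand, and Nr4a3 at chr4:48084755-48084781 and chr4:48084888-48084914 on the plus strand.
Nab2: tacagtagatTATTTATtttgttattt
Nr4a3 site 1: gctttgcctgTATTTATtgcaagacca
Nr4a3 site 2: gttacatataTATTTATaatgtgtctt
Egr1, Egr2, Egr3, Nr4a1 and Cd5 had no copy. Of the 11704 tested genes with an annotated 3′ UTR, 29.7% held at least 1. For comparison, Zfp36l1 and Zfp36l2 each had 3. The levels of Nab2 and Nr4a3 in DCKO cells stand below with those of the genes without a copy.

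The floxed genes checked the labels: Zfp36l1 averaged 2.33 ± 1.01 CPM (counts scaled to a common library size) in DCKO, 14.3 ± 6.13 in DN3b and 33.9 ± 7.15 in DN3a cells, and Zfp36l2 63.9 ± 20.1, 364 ± 79.4 and 541 ± 145 CPM (SD, n = 4 each). For both genes the DCKO libraries lay below all control libraries. CPM are scaled with TMM factors, which correct for differences in composition. Total counts per library were 30401159 to 41258922 in DCKO, 32359182 to 41664096 in DN3b and 28479157 to 45975678 in DN3a. All 12 DN3 marker genes were measured at testable levels. They summed to 5600 to 10513 CPM in DCKO, 3579 to 5402 in DN3b and 5187 to 8256 in DN3a. In DCKO against DN3b, 3 were called higher (Rag1, Rag2 and Bcl11b) and none lower. Against DN3a, 2 were called higher (Rag1 and Tcf7) and 3 lower (Notch3, Il2ra and Dtx1). The 8 B cell markers summed to 151 to 195 CPM in DCKO, 244 to 385 in DN3b and 119 to 164 in DN3a, most of it Ighm; Cd79b averaged 20.4, 18 and 48.7 CPM in the same groups, and the defining markers Cd79a, Ms4a1, Pax5, Ebf1 and Cd22 averaged under 1 CPM in each. Of the 2 tested, Ighm was called lower in DCKO than in DN3b, and against DN3a Ighm was called higher and Cd79b lower. The 9 myeloid markers summed to 11.2 to 26.4 CPM in DCKO, 5.01 to 13.2 in DN3b and 23.5 to 34.0 in DN3a. Of the 4 tested, Itgam was called higher in DCKO against DN3b, and Lyz2, the largest, lower against DN3a. S100a8 and S100a9 averaged 1.15 and 1.97 CPM in DCKO, 0.00614 and 0 in DN3b, and 0.00466 and 0.00933 in DN3a. The 8 dendritic markers summed to 16.7 to 30.9 CPM in DCKO, 14.9 to 20.7 in DN3b and 11.0 to 16.9 in DN3a. Of the 5 tested, Flt3 was called higher in DCKO against both controls, and H2-Aa and H2-Ab1 against DN3a. The 8 heat shock and dissociation genes, most of it Hsp90aa1, summed to 2261 to 3755 CPM in DCKO, 2095 to 3883 in DN3b and 886 to 1589 in DN3a cells, so the DCKO and DN3b ranges overlapped and DN3a lay below both; the dissociation-induced gene Atf3 averaged under 1 CPM in every group. The 7 CD4 CD8 double-positive markers summed to 894 to 996 CPM in DCKO, 623 to 971 in DN3b and 1047 to 1364 in DN3a, most of it Arpp21, and 1 was called lower in DCKO against DN3b (Cd8b1). Of the gamma-delta T cell markers the 7 matched summed to 300 to 664 CPM in DCKO, 493 to 800 in DN3b and 1400 to 1599 in DN3a, with 5 called lower in DCKO against DN3a, and 1 lower and 1 higher against DN3b. The 8 stromal markers summed to 129 to 252 CPM in DCKO, 102 to 200 in DN3b and 256 to 310 in DN3a. Of the 6 tested, Cdh5 was higher in DCKO, at an average of 32.7 CPM, against 1.44 in DN3b and 1.06 in DN3a (log2 4.47 and 4.91, both called). Against DN3a, 2 were called lower, Col1a1 and Epcam, the latter at 12.6 CPM in DCKO and 96.1 in DN3a. Foxn1, Col1a1, Col3a1 and Krt8 averaged under 1 CPM in each group. The part of these differences in the results below was not tested.

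In DCKO cells Egr1, Egr2, Nab2, Nr4a1 and Cd5 were lower than in both control stages, while Nr4a3 was lower than in DN3a and Egr3 could not be tested. Against DN3b, 5 of the 6 tested genes were lower (Egr1, Egr2, Nab2, Nr4a1 and Cd5), while 8.58% of all tested genes were called lower (edgeR quasi-likelihood test over 13944 genes, Benjamini-Hochberg adjusted p at or under 0.05). The DCKO and DN3b libraries did not overlap for 4 of them (Nr4a1, Cd5, Nab2 and Egr1), against 9.87% of all tested genes that were lower without overlap. Against DN3a, all 6 tested genes were lower and none overlapped, while 29.5% of tested genes were called lower and 27.1% were lower without overlap. The median log2 fold change of the 6 was -3.04 against DN3b and -3.09 against DN3a, beside -0.0219 and -0.041 over all tested genes. These 2 comparisons share the DCKO libraries. Upper quartile scaling changes the split of all calls, to 1644 lower and 1051 higher against DN3b, beside 1197 and 1438 with TMM, and to 5528 lower and 3119 higher against DN3a, beside 4116 and 4275; the counts among the 6 genes were the same. In sorted bulk samples, fewer cells with a transcript and less of it per cell cannot be told apart.

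**Figure D1:**
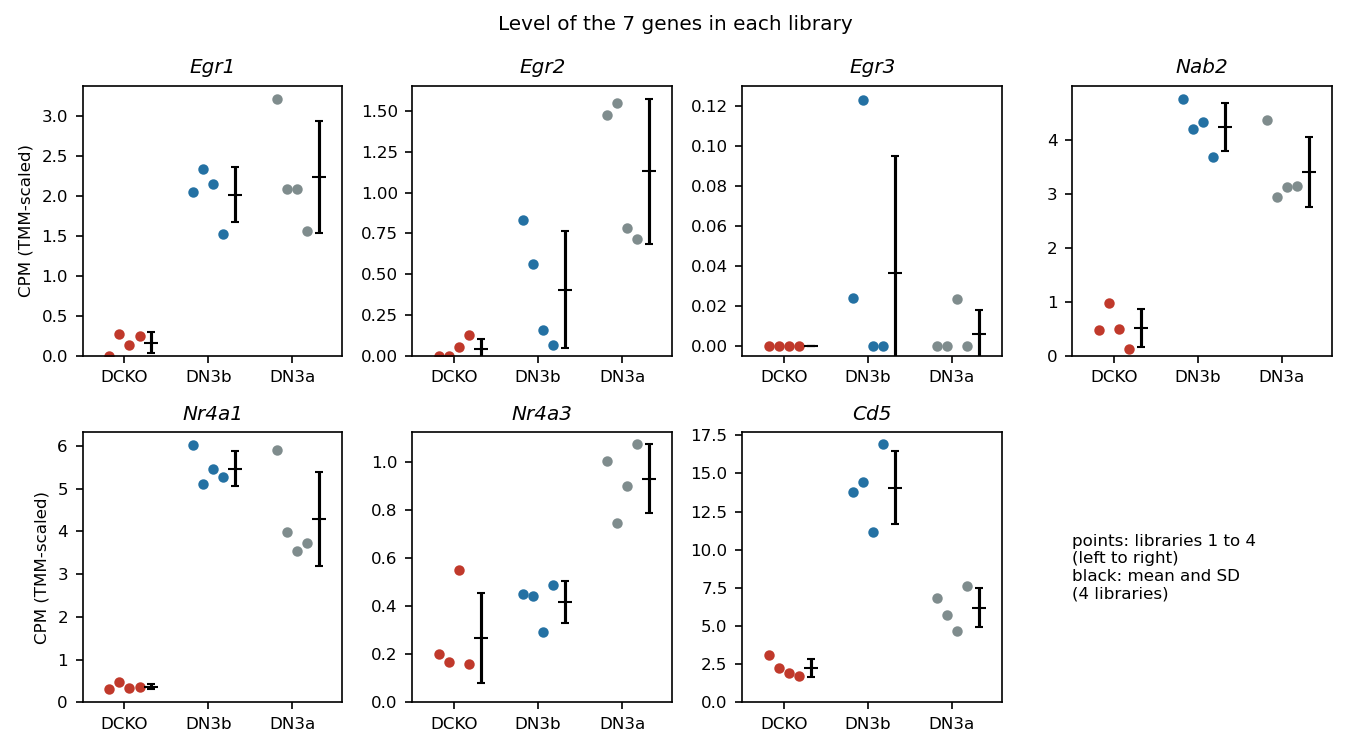
Level of the 7 genes in CPM (TMM-scaled; y axis from 0, with a margin below 0 for Egr3) in each of the 4 DCKO, 4 DN3b and 4 DN3a libraries, shown as points in the order of their numbers; black marks are the mean and SD, with SD bars cut at the lower edge. The DCKO points of Egr1, Nab2, Nr4a1 and Cd5 sit below all control points, and those of Egr2 and Nr4a3 overlap DN3b.

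Nr4a1 (ENSMUSG00000023034, chr15:101254269-101274795, plus strand) gave the smallest adjusted p of the 7 in both DCKO comparisons. It had 0.323, 0.473, 0.340 and 0.351 CPM in DCKO libraries 1 to 4, against 6.02, 5.11, 5.47 and 5.27 CPM in DN3b and 5.90, 3.97, 3.53 and 3.74 CPM in DN3a. These DCKO values rest on 8, 17, 13 and 11 counts, and they lay close together and well below every control library. The DCKO mean was 6.80% of the DN3b mean and 8.67% of the DN3a mean. The fitted log2 fold change was -3.86 ± 0.24 (SE) against DN3b (edgeR adjusted p = 1.6e-06) and -3.51 ± 0.23 against DN3a (adjusted p = 1.2e-06).

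Nr4a3 (ENSMUSG00000028341, chr4:48045153-48086447, plus strand) was highest in DN3a cells, and its DCKO libraries were split. It had 0.202, 0.167, 0.549 and 0.159 CPM in DCKO libraries 1 to 4, against 0.452, 0.442, 0.292 and 0.488 CPM in DN3b and 1.0, 0.746, 0.900 and 1.07 CPM in DN3a. DCKO library 3 was higher than all 4 DN3b libraries, the other DCKO libraries were lower than all of them, and all DCKO and DN3b libraries were below DN3a. The log2 fold change was -1.74 ± 0.39 against DN3a (edgeR adjusted p = 0.0020) and -0.59 ± 0.41 against DN3b (adjusted p = 0.33). Without DCKO library 3 the change against DN3b was -1.26 with an edgeR adjusted p of 0.035, so that library decides the call.

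Nr4a2 (NURR1), the remaining member of that receptor family, stayed within the spread between libraries. It averaged 1.07 ± 0.196 CPM in DCKO, 1.31 ± 0.217 in DN3b and 0.914 ± 0.165 in DN3a cells (SD, n = 4 each). The log2 fold change of DCKO was -0.30 ± 0.24 against DN3b (edgeR adjusted p = 0.41) and 0.21 ± 0.24 against DN3a (adjusted p = 0.46). All 3 groups overlapped. The sign against DN3a turns under upper quartile scaling, where the change was -0.011.

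Egr1 (ENSMUSG00000038418, on chromosome 18) was close to the limit of detection in DCKO cells. It had 0, 0.278, 0.131 and 0.255 CPM in DCKO libraries 1 to 4, against 2.05, 2.33, 2.15 and 1.53 CPM in DN3b and 3.22, 2.09, 2.08 and 1.56 CPM in DN3a. The DCKO values stand for 0, 10, 5 and 8 counts, and every control library had more, the lowest being 47 counts in DN3b library 4. The DCKO mean was 8.24% of DN3b and 7.42% of DN3a. The log2 fold change was -3.52 ± 0.48 against DN3b (edgeR adjusted p = 0.00039) and -3.67 ± 0.48 against DN3a (adjusted p = 4.2e-05).

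Egr2 (ENSMUSG00000037868, chr10:67535475-67542188, plus strand) was lower than in both control stages, less firmly against DN3b. It had 0, 0, 0.0523 and 0.128 CPM in DCKO libraries 1 to 4, against 0.833, 0.565, 0.159 and 0.0651 CPM in DN3b and 1.48, 1.55, 0.782 and 0.715 CPM in DN3a. That is 0, 0, 2 and 4 counts in DCKO, and 35, 23, 6 and 2 counts in DN3b. DN3b libraries 3 and 4 were near the DCKO range and DN3b library 4 fell inside it, whereas all DN3a libraries were above every DCKO and, apart from DN3b library 1, every DN3b library. The log2 fold change was -3.09 ± 0.90 against DN3b (edgeR adjusted p = 0.031) and -4.53 ± 0.86 against DN3a (adjusted p = 0.00060). The call against DN3b ends without DCKO library 1 (adjusted p = 0.080), DCKO library 2 (0.087), DCKO library 3 (0.074), DN3b library 1 (0.084) or DN3b library 2 (0.073); edgeR's log2 fold change was -2.80, -2.67, -3.17, -2.48 and -2.91 in these 5 fits.

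Egr3 (ENSMUSG00000033730, chr14:70077203-70082614, plus strand) was nearly absent from every group. The DCKO libraries had no count in any of the 4, DN3b libraries had 1, 5, 0 and 0 counts, and DN3a libraries had 0, 0, 1 and 0. A floor of 3 counts corresponds to 0.0784 to 0.121 CPM per DCKO library, so a difference from the controls was not detectable at this depth. The exact two-sided permutation p of the difference in mean CPM was 0.43 against DN3b and 1 against DN3a, where the smallest p that 4 against 4 libraries can give is 0.029. Egr4, the other EGR family gene, was as scarce, with no count in DCKO, 4, 0, 1 and 0 counts in DN3b and 0, 0, 2 and 1 in DN3a.

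Nab2 (ENSMUSG00000025402, chr10:127660918-127668568, minus strand) was low in all DCKO libraries. It had 0.484, 0.974, 0.497 and 0.128 CPM in DCKO libraries 1 to 4, against 4.76, 4.2, 4.32 and 3.68 CPM in DN3b and 4.37, 2.95, 3.13 and 3.15 CPM in DN3a. The DCKO values stand for 12, 35, 19 and 4 counts, vary more among themselves than those of Nr4a1 and stay below every control library. The DCKO mean was 12.3% of DN3b and 15.3% of DN3a. The log2 fold change was -3.0 ± 0.39 against DN3b (edgeR adjusted p = 0.00029) and -2.68 ± 0.39 against DN3a (adjusted p = 8.6e-05).

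Exons of Nab2 overlap those of 3 genes on the other strand, and no source used here gives the strand setting of the counting. Stat6 shares 40 bases (1.36% of the Nab2 exon length), Nemp1 151 bases (5.13%) and the transcript Gm16229 1050 bases (35.7%). Gm16229 had 0, 2 and 0 counts in all DCKO, DN3b and DN3a libraries together. Stat6 had 12908, 22300 and 21651 counts, and Nemp1 8654, 11926 and 6625, in the same order. The other 6 genes have no exonic overlap in GENCODE M21.

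Nab1, the related EGR corepressor, was a more abundant transcript without such a difference. Nab1 averaged 53.1 ± 4.46 CPM in DCKO, 52.6 ± 7.72 in DN3b and 45.6 ± 6.47 in DN3a cells (SD, n = 4 each). Its log2 fold change in DCKO was 0.01 ± 0.13 against DN3b (edgeR adjusted p = 0.95) and 0.22 ± 0.13 against DN3a (adjusted p = 0.15). The 3 groups overlapped. Both signs turn under upper quartile scaling (-0.064 and -0.0012), and without DN3a library 4 the second was called (0.32, adjusted p = 0.044).

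Cd5 (ENSMUSG00000024669, chr19:10717116-10739002, minus strand) separated the 3 groups from one another. It had 3.10, 2.25, 1.91 and 1.72 CPM in DCKO libraries 1 to 4, against 13.8, 14.5, 11.1 and 16.9 CPM in DN3b and 6.81, 5.71, 4.67 and 7.64 CPM in DN3a. No library of one group reached the range of another. The DCKO mean was 16% of DN3b and 36.2% of DN3a. The log2 fold change was -2.65 ± 0.23 against DN3b (edgeR adjusted p = 1.2e-05) and -1.47 ± 0.22 against DN3a (adjusted p = 0.00012).

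Cd6, which encodes a related surface protein of the scavenger receptor type, had the same order of groups. Cd6 averaged 1.99 ± 0.642 CPM in DCKO, 26.6 ± 6.39 in DN3b and 10.9 ± 1.78 in DN3a cells (SD, n = 4 each), with no overlap. It was 13.5-fold lower in DCKO than in DN3b (log2 -3.75 ± 0.25, edgeR adjusted p = 3.1e-06), and its log2 fold change against DN3a was -2.47 ± 0.24 (adjusted p = 6.2e-06).

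**Figure D2:**
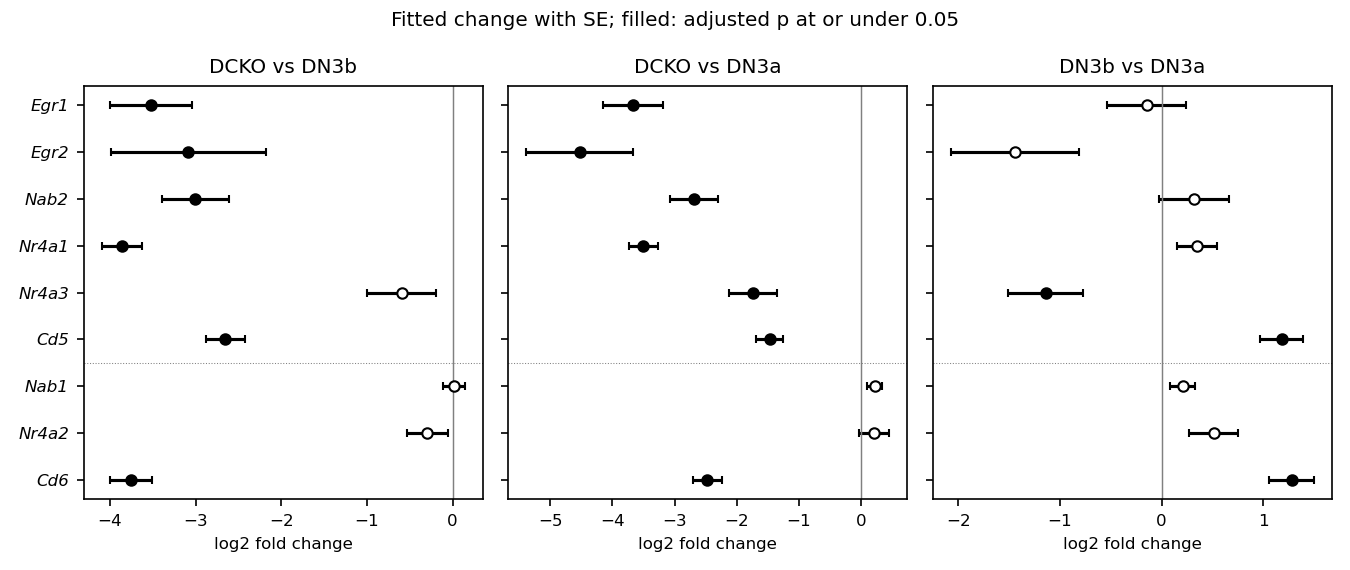
Fitted log2 fold change (x axis) with SE bars for the 6 tested genes and, below the dotted line, the relatives Nab1, Nr4a2 and Cd6, in DCKO vs DN3b, DCKO vs DN3a and DN3b vs DN3a; filled points have an adjusted p at or under 0.05. Nr4a1 lies at -3.86 and -3.51 in the DCKO panels, and Cd5 at 1.18 in the panel of the control stages.

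Between the control stages the 6 tested genes did not move as a group. In DN3b against DN3a, 1 was called higher (Cd5) and 1 lower (Nr4a3), while 27.4% of tested genes were called higher and 25.2% lower; Cd5 was also higher, and Nr4a3 lower, without overlap, as were 24.8% and 23.0% of tested genes. Their median log2 fold change was 0.09, beside -0.0220 over all tested genes. DN3b and DN3a libraries of the same number deviated together, which the main fit leaves out. With the number as a block, 2 genes were called lower (Egr2 and Nr4a3), as were 4704 of the 13715 genes tested in that fit.

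Cd5 rose 2.27-fold in DN3b (log2 1.18 ± 0.21, edgeR adjusted p = 0.00064) and was higher in DN3b in 4 of 4 same-numbered pairs. Its relative Cd6 rose as well (log2 1.28 ± 0.22, adjusted p = 0.00043). Nr4a3 fell to 45.0% of the DN3a mean (log2 -1.14 ± 0.37, adjusted p = 0.020), in 4 of 4 pairs. Without DN3b library 3 the Nr4a3 change was -1.01 and its edgeR adjusted p was 0.062.

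Egr2 was lower in DN3b in 4 of 4 pairs, and its log2 fold change of -1.44 ± 0.63 missed the threshold (edgeR adjusted p = 0.071). With the replicate number as a block it was called (-1.69, adjusted p = 0.0058). Nr4a1 (0.35 ± 0.20, adjusted p = 0.15) and Nab2 (0.32 ± 0.34, 0.45) were each higher in DN3b in 4 of 4 pairs and missed the threshold, also with the block (adjusted p = 0.073 and 0.098). Without DN3a library 1, the highest of its group for Nr4a1, the edgeR value for that gene was 0.54 with an adjusted p of 0.026. Egr1 was higher in 2 pairs and lower in 2 (-0.15 ± 0.39, adjusted p = 0.77).

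Per length of exon, Cd5 had the highest mean of the 7 in every group. Its mean was 0.456 RPKM (CPM per kilobase of exon) in DCKO, 2.86 in DN3b and 1.26 in DN3a cells. In both control groups the mean RPKM decreased in the order Cd5, Nr4a1, Nab2, Egr1, Egr2, Nr4a3 and Egr3, with Nr4a1 at 1.56 RPKM in DN3b and 1.22 in DN3a, and Nab2 at 1.44 and 1.16. The library ranges of Nr4a1 and Nab2 overlapped in both stages, and those of Egr2 and Nr4a3 in DN3b. In DN3a those of Cd5, Nr4a1 and Nab2, and of Egr1 and Egr2, overlapped. Overlap of ranges does not compare genes within a library, and the order of these neighbours was not tested.

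In DCKO cells the order by mean was Cd5 (0.456 RPKM), Nab2 (0.177), Nr4a1 (0.106), Nr4a3 (0.0450), Egr1 (0.0370), Egr2 (0.0132) and Egr3 (0). The Cd5 libraries lay above those of all the others. The range of Nab2 took in that of Nr4a1 and reached into that of Nr4a3, and the ranges of Nr4a3, Egr1 and Egr2 overlapped.

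**Figure D3:**
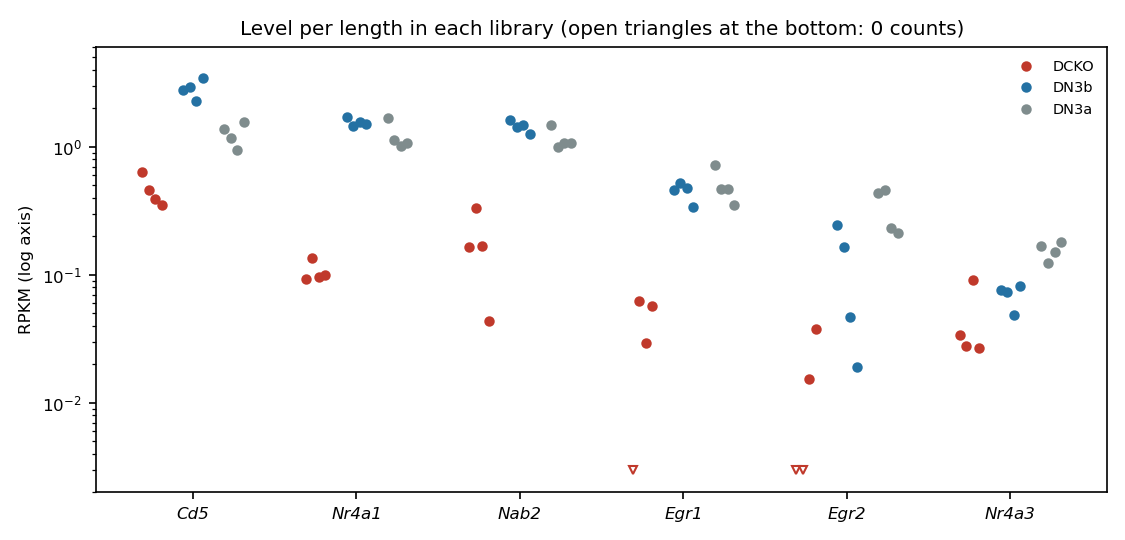
RPKM of 6 of the genes on a log axis, by gene and group (DCKO, DN3b, DN3a from left to right), 1 point per library; open triangles at the lower edge mark libraries with 0 counts. Cd5 has the highest mean in each group (0.456, 2.86 and 1.26 RPKM), and the DCKO points lie below the control points for Cd5, Nr4a1, Nab2 and Egr1.

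Lists of genes that act upstream of these transcripts had calls in both directions. They are read beside the 10.3% of tested genes called higher and 8.58% called lower in DCKO against DN3b, and 30.7% and 29.5% against DN3a. Of the 5 pre-TCR and CD3 genes, 2 were called higher and none lower in DCKO against DN3b, with a list median of 0.49. Cd3g averaged 1851 ± 134 CPM in DCKO, 771 ± 214 in DN3b and 1758 ± 106 in DN3a (SD, n = 4 each), a log2 fold change of 1.26 ± 0.17 against DN3b (edgeR adjusted p = 0.00029). Cd3d was 0.49 ± 0.13 higher on the log2 scale (adjusted p = 0.024); that call ends without DCKO library 2 (edgeR adjusted p = 0.092), DCKO library 3 (0.071), DN3b library 2 (0.057) or DN3b library 3 (0.088). Ptcra, which encodes pTalpha, averaged 97.1 ± 28.2 CPM in DCKO, 62.2 ± 44.7 in DN3b and 137 ± 68.4 in DN3a, with DN3b library 1 at 129 CPM and the other DN3b libraries at 37.8 to 41.5. Its change against DN3b was 0.64 ± 0.42 (adjusted p = 0.30), and without DN3b library 1 it was 1.28 (0.015). Against DN3a, 1 of the 5 was lower (Cd3d) and none higher, and 3 were lower under upper quartile scaling.

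Of 19 proximal kinases, adaptors and inhibitory enzymes, 1 was higher (Cbl) and 2 were lower (Zap70 and Ptpn6) in DCKO against DN3b, with a median of 0.08. Zap70, the kinase that docks on phosphorylated CD3 chains, averaged 16.5 ± 1.47 CPM in DCKO, 67.3 ± 13.0 in DN3b and 19.2 ± 4.33 in DN3a (SD, n = 4 each). Its log2 fold change was -2.03 ± 0.18 against DN3b (edgeR adjusted p = 1.2e-05) and -0.22 ± 0.17 against DN3a (adjusted p = 0.27). Ptpn6, the phosphatase SHP-1, was lower against both, by -0.70 ± 0.13 and -0.64 ± 0.13. The ubiquitin ligase Cbl changed by 0.39 ± 0.11 against DN3b (adjusted p = 0.024) and lost the call under upper quartile scaling (0.072) and without DCKO library 2 (0.077), DCKO library 3 (0.084), DN3b library 3 (0.054) or DN3b library 4 (0.065). Without DN3b library 1, 3 of the 19 were called higher. Lcp2, the adaptor SLP-76, missed the threshold (0.25 ± 0.09, adjusted p = 0.065). Against DN3a, 9 of the 19 were lower and none higher, and 14 were lower under upper quartile scaling.

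Of 14 genes of the Ras-ERK cascade and its serum response factor branch, 4 were higher and 1 was lower in DCKO against DN3b, with a median of -0.03. Nras averaged 295 ± 32.1 CPM in DCKO, 212 ± 19.9 in DN3b and 195 ± 10.9 in DN3a (SD, n = 4 each), a log2 fold change of 0.48 ± 0.10 against DN3b (edgeR adjusted p = 0.0063). Map2k1, the kinase MEK1, changed by 0.42 ± 0.10 (adjusted p = 0.0093). Rasgrp1, which links diacylglycerol to Ras in thymocytes, averaged 106 ± 26.6 CPM in DCKO, 154 ± 13.7 in DN3b and 170 ± 26.8 in DN3a, a change of -0.54 ± 0.16 against DN3b (adjusted p = 0.036). The Rasgrp1 call ends without DCKO library 1, 2 or 4, DN3b library 2, 3 or 4, or DN3a library 3 (edgeR adjusted p from 0.053 to 0.096). Leaving out any of DCKO libraries 1 to 3, DN3b libraries 1 to 3 or DN3a libraries 2 and 3 left 2 genes called higher. Under upper quartile scaling 2 of the 14 were higher and 2 lower, and without DCKO libraries 1 and 2 together none was called in either direction. Against DN3a, 6 were higher and 4 lower.

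Of 12 calcium, NFAT and MEF2 genes, 2 were higher and none lower in DCKO against DN3b, with a median of 0.05. Both encode calcineurin subunits: Ppp3cb changed by 0.57 ± 0.13 (edgeR adjusted p = 0.0094) and Ppp3r1 by 0.71 ± 0.17 (0.012). Nfatc2 (-0.74 ± 0.26, adjusted p = 0.065) and the further calcineurin gene Ppp3ca (0.33 ± 0.14, 0.12) missed the threshold. Without DCKO libraries 1 and 2 together none of the 12 was called, though Ppp3cb (0.58) and Ppp3r1 (0.70) changed by much the same amount, and without the DN3a and DN3b libraries 1 together 5 were called higher. Against DN3a, 4 were higher and 4 lower, and 2 and 5 under upper quartile scaling.

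Of 26 other signal-responsive genes, 4 were higher and 4 lower in DCKO against DN3b, with a median of 0.30. Id3, an inhibitor of E proteins induced downstream of EGR1, averaged 3.82 ± 1.35 CPM in DCKO, 17.4 ± 3.8 in DN3b and 4.27 ± 0.898 in DN3a (SD, n = 4 each). It fell by 2.19 ± 0.26 on the log2 scale against DN3b (edgeR adjusted p = 0.00016) and changed by -0.16 ± 0.26 against DN3a (0.60). The costimulatory receptor Cd28 had the same order, at 47.0 ± 7.17, 102 ± 12.9 and 47.6 ± 7.60 CPM. The immediate early gene Ier2 was lower against DN3b (-1.23 ± 0.28, adjusted p = 0.010), and the adhesion receptor Cd44 was higher against DN3b (2.17 ± 0.31, adjusted p = 0.00056) and DN3a (1.81 ± 0.31, 0.00027).

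The other genes of that list called against DN3b were Dusp2 (0.75), Dusp4 (0.86) and Gadd45b (1.18), which were higher, and Irf4 (-1.44), which was lower; they and the genes in the next sentence are named after their values were seen. The AP-1 genes Fos (0.92 ± 0.71, edgeR adjusted p = 0.39), Fosb (0.45 ± 0.57, 0.62), Jun (0.22 ± 0.37, 0.72) and Junb (-1.40 ± 0.56, 0.097) and the activation receptor Cd69 (-0.27 ± 0.26, 0.50) missed the threshold against DN3b. Without the DN3a and DN3b libraries 1 together 9 of the 26 were called higher and 3 lower; 8 were higher without DN3b library 1 alone, and 2 without DCKO library 3, DN3b library 2 or DN3b library 3. Against DN3a, 4 of the 26 were higher and 8 lower. Among those lower were Irf4 (-2.34 ± 0.42, edgeR adjusted p = 0.00043), Jun (-1.28 ± 0.37, 0.0088) and Cd69 (-0.80 ± 0.26, 0.016). Fos, Fosb and Junb missed the threshold against DN3a too.

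In DN3b against DN3a the same lists are read beside the 27.4% of tested genes called higher and the 25.2% called lower. All 5 pre-TCR and CD3 genes were lower, and 3 without DN3b library 2 or 4 and 2 without DN3b library 3 or DN3a library 1. Of the proximal list 2 of 19 were higher and 10 lower, of the Ras-ERK list 6 of 14 were higher and 2 lower, of the calcium list 2 of 12 were higher and 5 lower, and of the other signal-responsive genes 5 of 26 were higher and 8 lower. The Ras-ERK count of 6 higher was 2 under upper quartile scaling and without DN3b library 3, DN3a library 2 or DN3a library 3, and 3 without DN3b library 4 or DN3a library 4. Zap70 (log2 1.81 ± 0.17, edgeR adjusted p = 2.6e-05), Id3 (2.02 ± 0.26, 7.5e-05) and Cd28 (1.10 ± 0.14, 7.9e-05) were among those higher in DN3b, as Cd5 was.

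**Figure D4:**
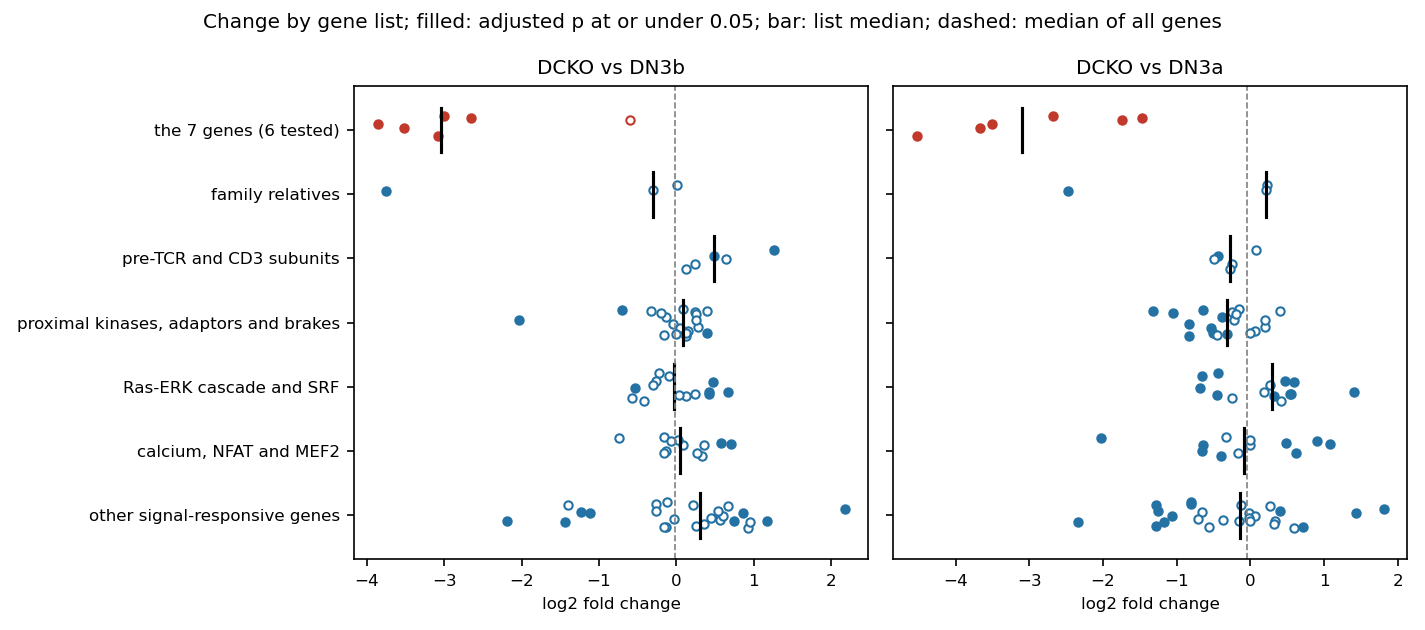
Log2 fold change (x axis) of each tested gene in DCKO vs DN3b and DCKO vs DN3a, 1 row per gene list; filled points have an adjusted p at or under 0.05, black bars are list medians and the dashed line is the median of all tested genes. The 6 tested genes (red) have medians of -3.04 and -3.09, and the medians of the pathway lists lie between -0.32 and 0.49.

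The genes whose pattern over the 12 libraries was most like that of each tested gene were read off as a description, since the libraries share their groups. Pearson's r of log2 CPM was taken against 9813 genes. Cd5 was closest to Cd6 (r = 0.98), then to Galnt12 (0.956) and Eogt (0.948), both of which encode glycosyltransferases. Egr1 was closest to Rin3 (0.98), Zfp94 (0.973) and Prdm11 (0.961), and Nr4a1 to Magee1 (0.975), Slc50a1 (0.974) and Fam53b (0.971). Nab2 was closest to Nsg2 (0.967), Slc22a5 (0.957) and Nr4a1 (0.949), which is itself one of the genes followed here.

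Egr2 and Nr4a3, which were highest in DN3a, had neighbours with that order of groups. Egr2 was closest to Cdk10 (r = 0.976), Msh5 (0.974) and Bend5 (0.973). Nr4a3 was closest to Kbtbd11 (0.953), the transcription factor Klf9 (0.948) and the zinc-finger gene Ikzf4 (0.943). Kbtbd11 averaged 64.8 ± 36.3 CPM in DCKO, 139 ± 8.93 in DN3b and 355 ± 56.7 in DN3a (SD, n = 4 each), and DCKO library 3 was the highest of its group for Kbtbd11 as it was for Nr4a3.

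The authors' deposited table of DESeq2 comparisons gave the same sign as the fit here for the 6 tested genes in each of the 3 comparisons. For DCKO against DN3b it lists log2 fold changes of -3.43 for Nr4a1, -2.67 for Egr1, -2.44 for Cd5, -2.42 for Nab2, -1.05 for Egr2 (adjusted p = 0.0267) and -0.39 for Nr4a3 (0.501). All 6 were smaller in size than the edgeR values of the fit here, where Egr2 was at -3.09. The sizes come from different tools and are not like for like, and the part of the tool in the difference was not tested. For DN3b against DN3a the authors' deposited table lists Egr2 at -1.19 with an adjusted p of 0.0379, which is past the threshold there.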

How the data were processed

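Per the labels' protocols, RNA was extracted by the RNeasy Micro Kit and rRNA-depleted stranded libraries were prepared. Per the submitters' processing notes, reads were handled with TopHat2 2.0.12, HTSeq, Trim Galore and DESeq2 1.6.3 on build GRCm38; no source used here gives the annotation release or strand setting. The authors deposited raw counts per Ensembl gene, which are the values tested here, a size-factor-normalised signal per gene, used only as a check, and comparison tables with log2 fold changes, test scores and p-values. The log2 values and adjusted p-values quoted as the authors' deposited table come from the last.

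Genes were filtered with filterByExpr (minimum count 10) and tested in 1 fit of all 12 libraries (R 4.3.3, edgeR 4.0.16, TMM factors, group as the only term, glmQLFTest, two-sided, Benjamini-Hochberg over 13944 genes, threshold 0.05); the script was tested on simulated data. The SE is the log2 fold change divided by the square root of F. CPM are counts on TMM-scaled library sizes (edgeR's cpm scale), and RPKM divides them by the exon length in GENCODE M21. Egr3, below the filter, was given an exact permutation test of mean CPM. Floors cover counting error only, while the SD and SE include the spread between libraries. Alternatives used DESeq2 1.42.0, limma 3.58.1, other scalings and filters, a replicate block, and each library left out.

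The genes, the gene lists and the rules were chosen with earlier results of these data known, and the libraries numbered 1 of both control groups were left out together as an alternative chosen after seeing the data. Named are the 7 genes, their relatives, the floxed genes, the 4 genes of each pathway list with the smallest adjusted p in DCKO against DN3b, and the 3 genes most correlated with each tested gene (log2 CPM with a prior count of 2 and a mean of at least 1); 1 gene under this rule and 1 marker are not reported here, and other names are marked as chosen after their values were seen. Deviations from group means in same-numbered libraries correlated at 0.354 to 0.564 between DN3b and DN3a, and at -0.257 to 0.119 between DCKO and either control. Same-numbered DN3b and DN3a libraries are therefore read as pairs, but only in the counts of pairs and the replicate block. The main fit and its adjusted p leave the pairing out. DCKO libraries are not read as paired with a control. No 2 libraries of a group agreed within sampling noise (lowest chi-square over its degrees of freedom 30.9).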

Additional observations from a re-analysis of the deposited data

Results flagged for a closer look

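Single libraries that stood apart from the other 3 of their group were looked for in 145 combinations of 49 named genes and a group with Dixon's test, and 9 were found; chance gives about 1 in 20. Among the signal-induced genes, Nr4a3 was at 0.549 CPM in DCKO library 3, against 0.159 to 0.202 CPM in the other DCKO libraries. Nab2 was at 4.37 CPM in DN3a library 1, against 2.95 to 3.15 CPM in the others. Egr3 was at 0.0237 CPM in DN3a library 3, which is 1 count, against 0 in the others.

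Of the relatives and pathway genes, Cd6 was at 2.94 CPM in DCKO library 1, against 1.59 to 1.82 CPM in the others. Ptcra was at 129 CPM in DN3b library 1, against 37.8 to 41.5 CPM. Of the genes with similar patterns, Kbtbd11 was at 119 CPM in DCKO library 3, against 40.2 to 52.1 CPM, and Klf9 at 11.0 CPM in DN3b library 1, against 5.56 to 6.19 CPM. Msh5 was at 5.33 CPM in DCKO library 4, against 3.39 to 3.69 CPM, and Slc22a5 at 23.9 CPM in DN3a library 4, against 27.2 to 27.5 CPM.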

How the results depend on the processing

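Egr1, Nab2, Nr4a1 and Cd5 stayed lower in DCKO than in DN3b and DN3a, and past the threshold, in all 23 alternatives. Egr2 against DN3b lost the call in 8 of the 20 that tested it (log2 -4.17 to -2.21, adjusted p from 0.0045 to 0.23), among them limma-voom (0.052) and the fit without DCKO libraries 1 and 2 together (0.23); the cause was not tested. The stricter filter (1 CPM in 4 libraries) removed 3 of the 7 genes and no filter removed 0, against 1 in the main analysis. No called change took the other sign.

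Genes called between DCKO and DN3b numbered 2635, and 950 without DCKO libraries 1 and 2 together, 1062 with the replicate block, whose numbers do not pair these groups, 3348 with DESeq2, and 1601 to 3249 with 1 library left out. For DN3b against DN3a, 1 of the 6 genes was called lower, and 2 with upper quartile scaling, limma-voom, the replicate block or without the libraries 1 of both control groups, 0 with the stricter filter, and 0 to 2 with 1 library left out. 1 was called higher, 2 without the libraries 1 of both control groups (Nr4a1, 0.49, adjusted p = 0.046) and 1 to 2 with 1 library left out. The block changed no other call of the 6 genes that it tested; Egr2 was below the filter of the block fit in DCKO against DN3b. With upper quartile scaling the all-gene median was -0.264 in DCKO against DN3a, -0.101 in DCKO against DN3b and -0.167 in DN3b against DN3a, where it called 4536 genes lower and 3021 higher beside 3519 and 3815. Depth limits Egr3 and, in DCKO cells, Egr1 and Egr2, which rest on 0 to 10 counts per library.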
